A study of Mus musculus with 10 samples.

Results

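The 40 genes described here belong to glycolysis and to the transcriptional response to low oxygen. They were taken by gene symbol from a fixed list, with all transcripts that carry the symbol summed, and 40 of 52324 gene symbols were found. By role they are 17 glycolytic enzymes, 4 carriers of glucose and lactate, 3 regulators of flux, 15 other hypoxia-induced genes and Hif1a, a subunit of the oxygen-sensing factor. Bulk RNA came from tumours grown under the skin from 4T1 cells, a line of mouse breast carcinoma, and taken on day 14. The 10 libraries fall into 5 groups of 2. Lipo-MK1775+NLG had the Lipo form of MK1775 with NLG, Lipo-MK1775 that form alone, Free-MK1775+NLG919 free MK1775 with NLG919, and Free-MK1775 the free drug alone. The negative control had PBS according to the design text, which also writes NLG919 for the group labelled NLG. MK1775 inhibits WEE1, a kinase that restrains entry into mitosis, and NLG919 acts on the IDO1 pathway of tryptophan breakdown. The sources used here give no doses, make-up of the Lipo form or host strain. The labels do not say whether the libraries of a group came from separate mice, so p-values speak only of the variation among these libraries, and that may be technical.

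Glycolysis splits glucose into pyruvate in the cytosol, and lactate dehydrogenase then turns pyruvate into lactate, which leaves the cell through monocarboxylate carriers. When oxygen is short, prolyl hydroxylases no longer mark HIF1A for destruction, and it binds with ARNT to hypoxia response elements of genes for glycolysis, glucose uptake, blood vessel growth, acid balance and mitophagy. Tumours such as 4T1 outgrow their blood supply, and carcinoma cells also run glycolysis with oxygen present, so the enzymes can be on in regions where the other hypoxia-induced genes are not.

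The core of a hypoxia response element is ACGTG or GCGTG, and the 250 bases upstream of transcription starts were searched for both on both strands. RefSeq promoter windows on build GRCm38.p6 were matched by symbol for 37 of the 40 genes, with 55 windows, and Slc2a3, Bnip3l and Ndrg1 had no entry. At least 1 of the motifs was found in 45 windows, which is 81.8%, against 38.6% of the 32851 windows of all symbols. The share was 75% of 28 windows of glycolytic enzymes and 88.9% of 18 windows of other hypoxia-induced genes. ACGTG alone was in 47.3% of the windows of the 40 genes and in 16.6% of all windows, and GCGTG in 58.2% and 28.2%. Windows of one gene can overlap, as some of Ak4 do, and the same motif is then counted in each. The windows of all symbols were not matched to those of the 40 genes for base composition or expression. Such a match describes letters in a window and is not a measured binding site. The windows of 4 genes are shown, chosen because the results below turn on them or, for Ldha, because its window holds the most ACGTG. They run 5′ to 3′ on the strand of the gene, with each ACGTG or GCGTG in capitals. A motif is written CACGT or CACGC where it lies on the opposite strand and CACGTG where both strands hold ACGTG. For Ak4 and Ldha the most upstream of several windows is given.
Adm, chr7:110627407-110627656, plus strand: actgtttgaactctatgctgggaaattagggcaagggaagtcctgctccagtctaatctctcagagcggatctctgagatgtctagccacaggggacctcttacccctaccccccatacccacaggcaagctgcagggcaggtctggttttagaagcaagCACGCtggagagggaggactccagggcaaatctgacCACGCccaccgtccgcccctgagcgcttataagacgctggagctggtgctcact
Ak4, chr4:101419039-101419288, plus strand: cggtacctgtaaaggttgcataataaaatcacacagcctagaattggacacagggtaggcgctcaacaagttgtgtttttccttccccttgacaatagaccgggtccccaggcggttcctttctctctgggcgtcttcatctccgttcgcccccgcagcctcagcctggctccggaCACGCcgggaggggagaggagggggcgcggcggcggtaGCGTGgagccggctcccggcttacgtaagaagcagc
Ldha, chr7:46845554-46845803, plus strand: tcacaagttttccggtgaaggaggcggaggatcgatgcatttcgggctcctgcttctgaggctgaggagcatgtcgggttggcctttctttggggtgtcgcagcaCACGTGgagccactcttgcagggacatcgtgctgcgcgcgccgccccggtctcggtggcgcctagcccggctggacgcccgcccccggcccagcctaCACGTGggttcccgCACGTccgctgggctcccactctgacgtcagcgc
Eno2, chr6:124769674-124769923, minus strand: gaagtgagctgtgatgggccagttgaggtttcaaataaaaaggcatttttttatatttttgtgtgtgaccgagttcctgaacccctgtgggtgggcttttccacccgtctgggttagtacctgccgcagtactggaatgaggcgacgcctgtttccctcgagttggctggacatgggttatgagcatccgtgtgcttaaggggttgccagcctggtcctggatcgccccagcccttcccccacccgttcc
The Adm and Ak4 windows each hold 2 GCGTG, the Ldha window holds 5 ACGTG counted over both strands, and the Eno2 window holds 0 of either.

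Levels are given as nuclear TPM: deposited FPKM, summed per gene, times 1000000 over the summed FPKM of all transcripts outside the mitochondrial chromosome. The scale is per transcript length, so levels can be set side by side between genes. This rescaling matters because mitochondrial transcripts made up 64.1% and 56.0% of summed FPKM in Lipo-MK1775 and 47.3% in Free-MK1775+NLG919 replicate 2, against 2.88% to 4.82% in the other 7 libraries. Both Lipo-MK1775 libraries have a high mitochondrial share, so this treatment and that share cannot be told apart in any comparison that uses them. Relative depth, read from the most common value of FPKM times length among single-exon transcripts, ran from 1 in Lipo-MK1775 replicate 1 to 1.96 in negative control replicate 1. It includes mitochondrial fragments, so nuclear depth is lower still in the libraries of high mitochondrial share. In bulk tumours fewer cells of a type and less RNA per cell cannot be told apart. Markers of the 4T1 epithelial cell (8 genes, all detected) summed to 940 and 1449 nuclear TPM in Lipo-MK1775 and 1048 in Free-MK1775+NLG919 replicate 2. The other 7 libraries had 1265 to 2091. Krt8 and Krt18 make up most of this sum. In Lipo-MK1775 against the control the median log2 change of these markers was -0.88, beside -0.78 over all genes tested. Endothelial markers summed to 43.4 and 26.7 in Lipo-MK1775 and 61.8 in Free-MK1775+NLG919 replicate 2, against 94.3 to 154 in the other 7 libraries. Skeletal muscle markers summed to 18.6 and 69.6 in Lipo-MK1775 and 3.57 in Free-MK1775+NLG919 replicate 2, against 64.5 to 590 in the other 7. Neutrophil markers ran from 673 to 2699 and macrophage markers from 2462 to 6020. S100a8 and S100a9 make up most of the neutrophil sum, which was 673 and 2089 in Lipo-MK1775. In Lipo-MK1775 against the control all 10 neutrophil markers had negative log2 changes, as had 82.8% of all genes. Their median was -1.13, beside -0.78 over all genes tested. Fibroblast markers ran from 174 in Free-MK1775+NLG919 replicate 2 to 755 in Lipo-MK1775 replicate 2. Erythroid markers summed to 339 to 896 in the Free-MK1775+NLG919 and Free-MK1775 libraries, against 135 to 245 in the other 6, the control included. The part of other cells in the results was not tested.

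In control tumours Pkm, Aldoa, Ldha, Gapdh, Eno1, Pgk1 and Tpi1 ranked between 23 and 117 of all symbols, while other enzymes lay far lower, such as Hk2 at rank 2967, Eno2 at 3390 and Ldhb at 8298. Pkm, the last enzyme of the pathway, averaged 2765 ± 47.4 nuclear TPM (SD, n = 2). Aldoa, the main aldolase, had 2548 ± 179, Ldha, which makes lactate, 1931 ± 85.7, and Gapdh, which carries out the oxidation step, 1682 ± 342. Eno1, the general enolase, stood at 1582 ± 119, Pgk1, the first ATP-yielding kinase, at 1217 ± 21.5 and Tpi1, the triose isomerase, at 1160.0 ± 29.7. By symbol alone the libraries of Gapdh overlap those of Ldha and of Eno1, so its place beside them rests on how the locus is summed. Transcripts with the symbol held 75.4% and 60.6% of the Gapdh locus in the control libraries. With assembled transcripts of the same locus that carry no symbol added, Gapdh had 2549 and 2376. Ldha then had 1870 and 1991 and Eno1 1666 and 1501, both below Gapdh. The highest of the 15 other hypoxia-induced genes was Ndrg1, a stress gene, at 572 ± 11.6. By symbol alone its libraries lie inside the range of Gpi1, the second enzyme of glycolysis. With assembled transcripts Gpi1 had 841 and 738, above Ndrg1 at 564 and 580. The isoforms differ widely. Among the phosphofructokinases, which set the pace of glycolysis, Pfkl had 189 ± 24.5, Pfkp 138 ± 10.8 and Pfkm 23.6 ± 2.04, while Ldhb had 11.8 ± 0.950 beside the level of Ldha. Slc2a1, the ubiquitous glucose transporter, had 178 ± 13.4, and Slc2a3, a high-affinity transporter, had the lowest level of the 40 at 7.54 ± 1.11. With assembled transcripts Slc2a1 had 262 and 331. The 17 enzymes together took 1.43% and 1.46% of the nuclear sum in the control libraries. Many pseudogenes resemble Gapdh, Ldha, Aldoa, Tpi1, Pgk1 and Eno1, and how reads were shared with them is uncertain.

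**Figure D1:**
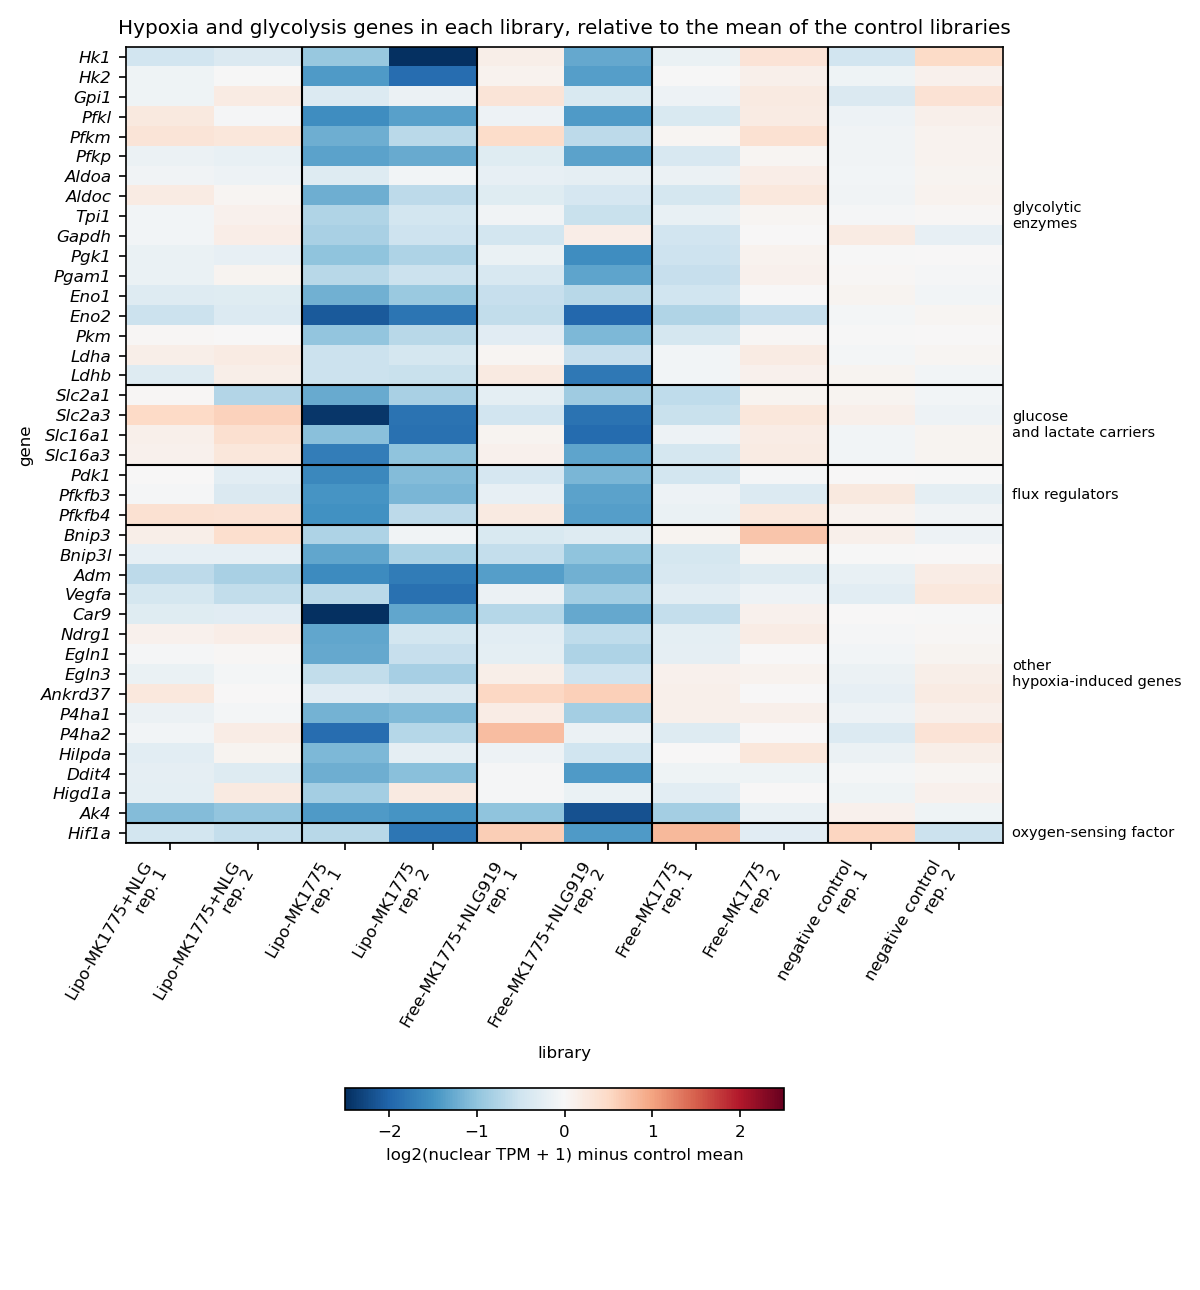
Heat map of the log2(nuclear TPM + 1) of each of the 40 genes (vertical axis, by role) in each of the 10 libraries (horizontal axis), less the mean of the 2 negative control libraries. Blue is below and red above that mean, and the colour scale ends at 2.5 either way. The Lipo-MK1775 libraries and Free-MK1775+NLG919 replicate 2 are blue for most genes, with Aldoa and Ankrd37 pale.

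Of the comparisons with the negative control, that of Lipo-MK1775 gave the most changes. Of the 40 genes, 13 fell and 0 rose, by limma's moderated test with a Benjamini-Hochberg adjusted p under 0.05 over 15469 genes. Of all genes tested, 21% were called, 19.4% lower and 1.62% higher, so the 13 genes are to be read against a general drop. The median log2 change was -1.05 over the 40 genes and -0.78 over all genes tested. At an unadjusted p under 0.05 there were 28 of the 40, against 43.5% of all genes. Every one of the 40 had a negative change, as had 82.8% of all genes, and in 36 the libraries of the groups did not overlap, against 75.6% of all genes. With median-of-ratios scaling, which centres the genes, the median of all moved to -0.06 and that of the 40 to -0.18, 27 of the 40 were below 0 and 13 above, and Eno2 alone was called. All 13 genes called on the nuclear scale kept negative values there. The split over all genes was 435 higher and 391 lower there, beside 251 and 3000 on the nuclear scale.

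Of the 17 enzymes, 5 were called lower in Lipo-MK1775, where 19.4% of all genes were. They stand at 3 steps: hexokinase, phosphofructokinase and enolase. These are the steps that passed the cutoff, since all 17 enzymes had negative changes, as had 82.8% of all genes. In 15 of the 17 the libraries did not overlap the control, against 75.6% of all genes. With assembled transcripts of the loci added, Hk1, Gpi1, Aldoc, Gapdh and Pkm were called too, in a setting where more of all genes were called. Hk2, the inducible hexokinase that traps glucose in the cell, measured 49.9 and 53.5 in Lipo-MK1775+NLG, 19.5 and 13.7 in Lipo-MK1775, 57.5 and 20.1 in Free-MK1775+NLG919, 53.5 and 59.3 in Free-MK1775, and 50.3 and 57.9 in the negative control. Both Lipo-MK1775 libraries and Free-MK1775+NLG919 replicate 2 are at or under 20.1, while the other 7 libraries lie between 49.9 and 59.3. Its log2 change against the control was -1.66, SE 0.43, adjusted p = 0.0365. Pfkl, the liver-type phosphofructokinase, measured 223 and 183 in Lipo-MK1775+NLG, 63.1 and 72.5 in Lipo-MK1775, 172 and 69.7 in Free-MK1775+NLG919, 145 and 217 in Free-MK1775, and 171 and 206 in the negative control. Pfkp, the platelet type, had 125 and 121 in Lipo-MK1775+NLG, 54.3 and 56.9 in Lipo-MK1775, 112 and 54.2 in Free-MK1775+NLG919, 104 and 142 in Free-MK1775, and 131 and 146 in the negative control. In both genes the same 3 libraries are lowest, with no overlap between Lipo-MK1775 and the control. The log2 changes were -1.46, SE 0.40, adjusted p = 0.0389 for Pfkl and -1.30, SE 0.33, adjusted p = 0.0355 for Pfkp. Transcripts with the symbol held 63.6% and 52.8% of the Pfkl locus in Lipo-MK1775, against 83.0% and 82.6% in the control. With assembled transcripts the Pfkl change was -0.95, adjusted p = 0.0394 by limma. Eno1 had 1259.7 and 1285 in Lipo-MK1775+NLG, 688 and 831 in Lipo-MK1775, 1056 and 977 in Free-MK1775+NLG919, 1126 and 1589 in Free-MK1775, and 1666 and 1498 in the negative control. The Lipo-MK1775 libraries are the lowest of the 10, and those of Free-MK1775+NLG919 come next. Eno1 fell by 1.06 on the log2 scale in Lipo-MK1775 (SE 0.22, adjusted p = 0.0280).

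Eno2, the neuronal enolase and a hypoxia target, lies at chr6:124737016-124746636 on the minus strand of GRCm39. It measured 32.0 and 36.9 in Lipo-MK1775+NLG, 10.1 and 12.5 in Lipo-MK1775, 30.2 and 11.3 in Free-MK1775+NLG919, 27.6 and 31.2 in Free-MK1775, and 45.7 and 48.3 in the negative control. The Lipo-MK1775 libraries and Free-MK1775+NLG919 replicate 2 were lowest, and all 8 treated libraries lay below both control libraries, which does not hold once assembled transcripts of the locus are added. The log2 change in Lipo-MK1775 was -1.97, SE 0.41, adjusted p = 0.0280, and under median-of-ratios scaling -1.14 with adjusted p = 0.0420. Hk1, the housekeeping hexokinase, measured 53.5 and 58.2 in Lipo-MK1775+NLG, 38.5 and 9.43 in Lipo-MK1775, 83.4 and 30.3 in Free-MK1775+NLG919, 66.5 and 95.7 in Free-MK1775, and 53.4 and 105 in the negative control. Its control libraries are far apart, and the change in Lipo-MK1775 of -1.90 was not called (SE 0.66, adjusted p = 0.0659).

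By symbol alone the smallest enzyme changes in Lipo-MK1775 were those of Aldoa and Gpi1. Aldoa had 2401 and 2346 in Lipo-MK1775+NLG, 2038 and 2439 in Lipo-MK1775, 2220.0 and 2164 in Free-MK1775+NLG919, 2286 and 2843 in Free-MK1775, and 2422 and 2675 in the negative control. The Lipo-MK1775 libraries overlap the control, with a log2 change of -0.19, SE 0.20, adjusted p = 0.473. Gpi1 had 508 and 627 in Lipo-MK1775+NLG, 432 and 494 in Lipo-MK1775, 686 and 417 in Free-MK1775+NLG919, 502 and 636 in Free-MK1775, and 422 and 706 in the negative control. These overlap too, at -0.24, SE 0.32, adjusted p = 0.571. Transcripts with the symbol held 50.2% of the locus in negative control replicate 1. With assembled transcripts Gpi1 had 432 and 494 in Lipo-MK1775 and 841 and 738 in the control, and it was called (-0.77, adjusted p = 0.0251 by limma). Gapdh measured 1577 and 1867 in Lipo-MK1775+NLG, 945 and 1158 in Lipo-MK1775, 1206 and 1879 in Free-MK1775+NLG919, 1202 and 1685 in Free-MK1775, and 1923 and 1440.4 in the negative control. By symbol alone Free-MK1775+NLG919 replicate 2, low for most enzymes, was near the top for Gapdh. The transcripts with the symbol held 89.6% of the locus in that library, against 60.6% to 75.4% in the others, and with assembled transcripts it measured 2096, below both control libraries. By symbol alone the change in Lipo-MK1775 was -0.67 (adjusted p = 0.110). Pfkm, the muscle phosphofructokinase, had 29.8 and 28.9 in Lipo-MK1775+NLG, 9.54 and 14.5 in Lipo-MK1775, 32.6 and 14.6 in Free-MK1775+NLG919, 24.4 and 31.0 in Free-MK1775, and 22.2 and 25.1 in the negative control, and Ldhb, the heart-type lactate dehydrogenase, had 9.16 and 13.1 in Lipo-MK1775+NLG, 7.81 and 7.62 in Lipo-MK1775, 13.9 and 2.69 in Free-MK1775+NLG919, 11.2 and 12.7 in Free-MK1775, and 12.4 and 11.1 in the negative control. Both were low in Lipo-MK1775 and in Free-MK1775+NLG919 replicate 2, and their changes in Lipo-MK1775 of -0.94 and -0.55 were not called. The other 6 enzymes, Aldoc, Tpi1, Pgk1, Pgam1, Pkm and Ldha, changed by -0.94 to -0.48 with 0 called by symbol alone.

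Among carriers, Slc2a3 fell most of all 40 genes in Lipo-MK1775. It measured 11.0 and 11.6 in Lipo-MK1775+NLG, 0.568 and 1.35 in Lipo-MK1775, 5.08 and 1.36 in Free-MK1775+NLG919, 4.76 and 9.33 in Free-MK1775, and 8.33 and 6.75 in the negative control. Both Lipo-MK1775 libraries are under 1.4, and the level of the first stands for an estimated 9.58 fragments and that of the second for 34.8. Its log2 change, -2.15, SE 0.52, adjusted p = 0.0329, is understated by the pseudocount of 1. Slc2a1 had 181 and 107 in Lipo-MK1775+NLG, 73.5 and 100.3 in Lipo-MK1775, 149 and 95.5 in Free-MK1775+NLG919, 114 and 186 in Free-MK1775, and 187 and 168 in the negative control. Slc16a1, which moves lactate in and out, had 146 and 176 in Lipo-MK1775+NLG, 64.5 and 36.1 in Lipo-MK1775, 139 and 34.5 in Free-MK1775+NLG919, 123 and 153 in Free-MK1775, and 128 and 139 in the negative control. Slc16a3, the lactate exporter of hypoxic cells, had 39.9 and 45.5 in Lipo-MK1775+NLG, 10.5 and 17.9 in Lipo-MK1775, 40.04 and 14.3 in Free-MK1775+NLG919, 27.2 and 43.0 in Free-MK1775, and 35.3 and 39.0 in the negative control. In each of these 3 the Lipo-MK1775 libraries lay below the control without overlap, and by symbol alone the log2 changes of -1.04, -1.45 and -1.37 were not called (adjusted p = 0.0655, 0.0833 and 0.0650). With assembled transcripts all 3 were called by limma, in a setting where more of all genes were called. Slc2a1 then had -1.75 (adjusted p = 0.0121), Slc16a1 -1.47 (adjusted p = 0.0491) and Slc16a3 -1.37 (adjusted p = 0.0364).

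Among regulators of flux, Pdk1, the kinase that shuts off pyruvate dehydrogenase, had 52.8 and 43.4 in Lipo-MK1775+NLG, 16.5 and 24.4 in Lipo-MK1775, 38.9 and 23.1 in Free-MK1775+NLG919, 37.9 and 51.7 in Free-MK1775, and 52.8 and 52.5 in the negative control. Pfkfb3, which makes the activator fructose-2,6-bisphosphate, had 31.8 and 25.0 in Lipo-MK1775+NLG, 11.1 and 14.2 in Lipo-MK1775, 27.9 and 12.2 in Free-MK1775+NLG919, 29.8 and 25.6 in Free-MK1775, and 38.5 and 27.5 in the negative control. Both fell in Lipo-MK1775, Pdk1 by 1.35 (SE 0.33, adjusted p = 0.0338) and Pfkfb3 by 1.31 on the log2 scale (SE 0.40, adjusted p = 0.0489). Pfkfb4, a related enzyme, had 20.1 and 19.7 in Lipo-MK1775+NLG, 4.66 and 9.26 in Lipo-MK1775, 17.8 and 5.18 in Free-MK1775+NLG919, 13.3 and 18.4 in Free-MK1775, and 16.1 and 14.2 in the negative control. Its change of -1.08 in Lipo-MK1775 was not called (adjusted p = 0.144).

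Of the 15 other hypoxia-induced genes, 5 fell in Lipo-MK1775, where 19.4% of all genes were called lower. Adm, which encodes the vessel-dilating peptide adrenomedullin and lies at chr7:110226868-110229027 on the plus strand of GRCm39, had 69.6 and 62.9 in Lipo-MK1775+NLG, 36.4 and 32.4 in Lipo-MK1775, 42.0 and 47.4 in Free-MK1775+NLG919, 83.5 and 88.1 in Free-MK1775, and 97.9 and 125 in the negative control. On the nuclear scale the groups keep one order, with Lipo-MK1775 lowest, then Free-MK1775+NLG919, Lipo-MK1775+NLG, Free-MK1775 and the control. No library of one group overlaps another there. With median-of-ratios scaling the first groups of this order are nearly level. Their log2 changes against the control were -0.80 in Lipo-MK1775, -0.77 in Free-MK1775+NLG919 and -0.72 in Lipo-MK1775+NLG, beside -0.30 in Free-MK1775. The log2 change in Lipo-MK1775 was -1.66, SE 0.23, adjusted p = 0.0210, the smallest adjusted p among the 40 genes. Car9, the carbonic anhydrase that exports acid, had 85.5 and 86.5 in Lipo-MK1775+NLG, 15.2 and 42.3 in Lipo-MK1775, 64.3 and 43.3 in Free-MK1775+NLG919, 70.2 and 114 in Free-MK1775, and 107 and 105 in the negative control. On the log2 scale the Lipo-MK1775 libraries differ from each other by more than those of any other group, both lie below the control, and the log2 change was -2.02, SE 0.45, adjusted p = 0.0296. Ak4, a mitochondrial adenylate kinase at chr4:101276474-101324192 on the plus strand, had 15.9 and 16.9 in Lipo-MK1775+NLG, 12.3 and 11.9 in Lipo-MK1775, 16.7 and 6.85 in Free-MK1775+NLG919, 18.6 and 30.2 in Free-MK1775, and 37.1 and 32.2 in the negative control. All treated libraries lie below both controls, and the log2 change in Lipo-MK1775 was -1.44, SE 0.42, adjusted p = 0.0430.

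P4ha1, a collagen prolyl hydroxylase subunit, had 164 and 177 in Lipo-MK1775+NLG, 80.3 and 84.8 in Lipo-MK1775, 209 and 101 in Free-MK1775+NLG919, 199.9 and 199 in Free-MK1775, and 167 and 200.2 in the negative control. Bnip3l, a mitophagy receptor, had 245 and 243 in Lipo-MK1775+NLG, 114 and 161 in Lipo-MK1775, 186 and 139 in Free-MK1775+NLG919, 206 and 291 in Free-MK1775, and 278 and 283 in the negative control. Both fell in Lipo-MK1775, by 1.14 for P4ha1 (SE 0.32, adjusted p = 0.0402) and by 1.04 for Bnip3l on the log2 scale (SE 0.26, adjusted p = 0.0351). Ankrd37, an ankyrin repeat gene, had 40.1 and 33.3 in Lipo-MK1775+NLG, 27.2 and 25.6 in Lipo-MK1775, 47.8 and 50.8 in Free-MK1775+NLG919, 36.3 and 33.7 in Free-MK1775, and 28.6 and 38.5 in the negative control. Higd1a, a mitochondrial hypoxia-induced protein, had 42.3 and 58.3 in Lipo-MK1775+NLG, 27.2 and 58.5 in Lipo-MK1775, 49.1 and 44.5 in Free-MK1775+NLG919, 41.5 and 50.4 in Free-MK1775, and 46.1 and 54.2 in the negative control. These were the least changed of the role in Lipo-MK1775, at -0.32 and -0.31 (adjusted p = 0.341 and 0.511), and Ankrd37 was highest in both Free-MK1775+NLG919 libraries. The 8 others not called were Bnip3, Vegfa, the vessel growth factor, Ndrg1, the oxygen sensors Egln1 and Egln3, P4ha2, Hilpda, a lipid droplet protein, and Ddit4, an inhibitor of mTORC1. Their changes ran from -1.31 for P4ha2 to -0.43 for Bnip3. With assembled transcripts Bnip3, Vegfa, Ndrg1, Egln3, P4ha2 and Ddit4 were called too, in a setting where more of all genes were called, and Egln1 and Hilpda were not.

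These calls rest on few libraries. The count of 13 became 0 without negative control replicate 1 or 2, Lipo-MK1775 replicate 1, or Lipo-MK1775+NLG replicate 1 or 2, and 1 (Car9) without Lipo-MK1775 replicate 2. It became 4 without either Free-MK1775 library, where 6.4% and 6.66% of all genes were called. It became 31 without either Free-MK1775+NLG919 library, where 49.6% and 49.4% of all genes were called. These libraries enter the shared estimate of spread. With the mitochondrial share as a covariate 0 were called and 20 of the 40 were below 0. That fit takes its slope mainly from the pair of Free-MK1775+NLG919 libraries, so it cannot separate Lipo-MK1775 from the share.

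In Lipo-MK1775 the enzymes and the other hypoxia-induced genes were set side by side. The median log2 change was -0.89 for the 17 enzymes and -1.04 for the 15 other hypoxia-induced genes, a difference of 0.151 where the pooled SD of this difference between libraries of a group is 0.135. By library, enzymes less other hypoxia-induced genes came to 0.09 and 0.06 in Lipo-MK1775+NLG, 0.22 and 0.13 in Lipo-MK1775, -0.02 and -0.35 in Free-MK1775+NLG919, -0.13 and 0.08 in Free-MK1775, and 0.07 and -0.07 in the negative control. The lowest value belongs to Free-MK1775+NLG919 replicate 2, where the enzymes had a median of -1.12 and the other hypoxia-induced genes -0.77 against the control mean. In the 4 comparisons with the control, which share the control libraries, the difference of medians was 0.05 for Lipo-MK1775+NLG, 0.15 for Lipo-MK1775, -0.19 for Free-MK1775+NLG919 and 0.03 for Free-MK1775, and without the high-mitochondrial library that for Free-MK1775+NLG919 was -0.02.

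**Figure D2:**
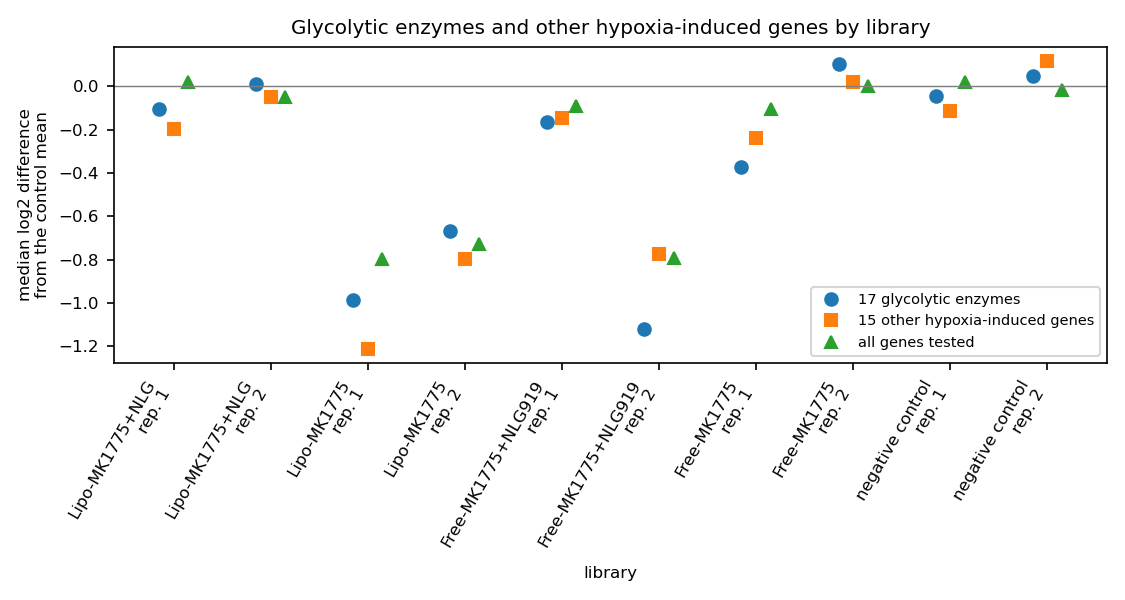
Median log2 difference from the mean of the negative control libraries (vertical axis) in each library (horizontal axis) for the 17 glycolytic enzymes (circles), the 15 other hypoxia-induced genes (squares) and all genes tested (triangles). All 3 medians lie between -0.67 and -1.21 in Lipo-MK1775 and Free-MK1775+NLG919 replicate 2, and between -0.37 and 0.12 elsewhere.

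The size of the drop went with transcript length. Across the 40 genes the Lipo-MK1775 change and log2 length had Pearson r = -0.564 and Spearman rho = -0.63, as a description over genes that share libraries. Over all genes the median change was -0.08 under 1000 bases, -0.53 from 1000 to under 2000, -0.88 from 2000 to under 4000 and -1.17 at 4000 and over. Among the 40 genes the medians were -0.32 (Ankrd37 alone), -0.64 (12 genes), -1.04 (17 genes) and -1.41 (10 genes) in the same classes. Adm, Car9 and Eno2 lie below their classes, since Adm has a length of 1380 bases and a change of -1.66, Car9 1965 bases and -2.02, and Eno2 2552 bases and -1.97. Ldha (1575 bases, -0.48) and Aldoa (1574 bases, -0.19) lie above the median of their class. In Free-MK1775 and Lipo-MK1775+NLG against the control the correlation with length was r = -0.05 and -0.07. The part of length in the drop was not tested.

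The libraries of Free-MK1775+NLG919 carry the same label and differ in mitochondrial share, 47.3% in replicate 2 and 2.88% in replicate 1. By symbol alone replicate 2 minus replicate 1 had a median of -0.78 over the 40 genes, 36 of which were lower in replicate 2, and -0.67 over all genes tested. The median was -0.90 for enzymes and -0.54 for other hypoxia-induced genes. Hif1a (-2.03), Ldhb (-2.01), Slc16a1 (-1.98) and Pfkfb4 (-1.60) differed most, while Gapdh (0.64), Adm (0.17), Ankrd37 (0.09) and Bnip3 (0.05) were higher in replicate 2. With assembled transcripts 37 of the 40 were lower, and Bnip3 among them, at 173 in replicate 2 against 205 in replicate 1. Gapdh then differed by 0.17 and Hif1a by -1.45, and Ldhb (-2.01) and Slc16a1 (-1.98) differed most. Across the 40 genes this difference within a group and the Lipo-MK1775 change, which share no library, had r = 0.447 and rho = 0.503.

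**Figure D3:**
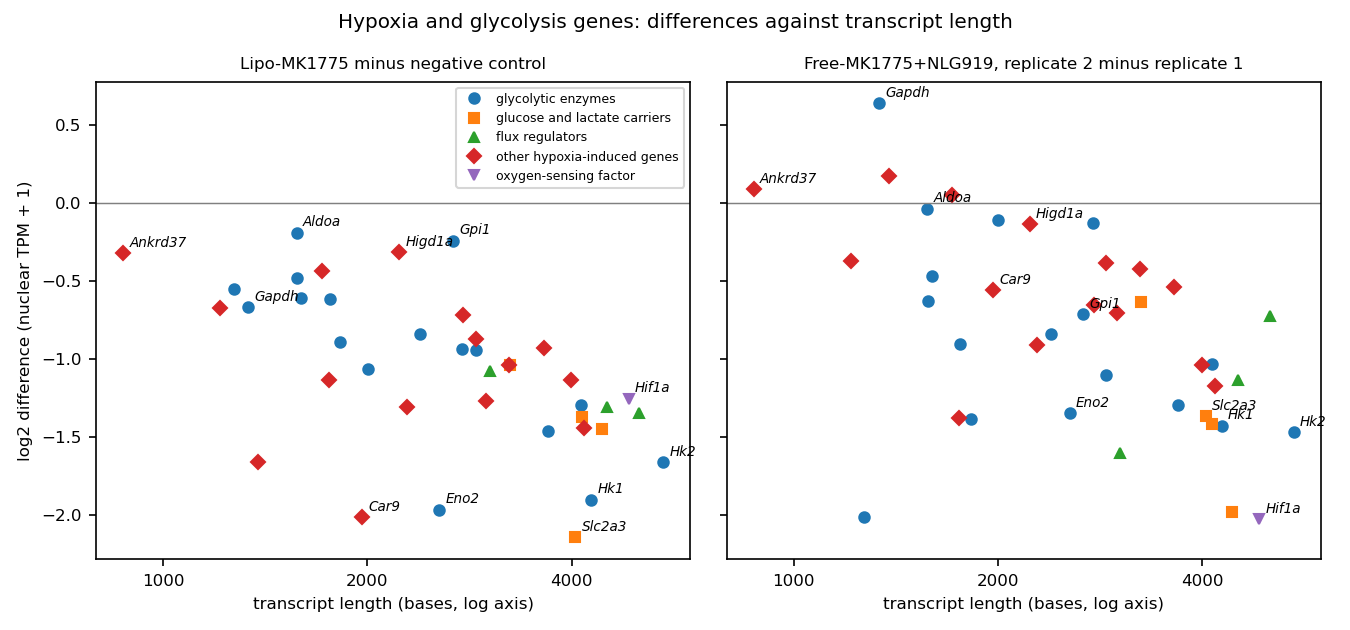
Log2 difference in nuclear TPM + 1 (vertical axis) against transcript length in bases (log axis) for the 40 genes by role, for Lipo-MK1775 minus negative control (left) and for replicate 2 minus replicate 1 of Free-MK1775+NLG919 (right). Longer genes lie lower in both panels, and Car9 and Eno2 lie below genes of like length on the left.

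Free-MK1775 against the control had 0 of the 40 genes called by limma's test. Of all genes 0.0129% were called, 303 or 1.96% had an unadjusted p under 0.05, and 0 of the 40 were among those. By symbol alone the largest negative change was that of Eno2 (-0.66, SE 0.41) and the largest positive that of Bnip3 (0.38, SE 0.30). Bnip3, a mitophagy receptor, had 187 and 226 in Lipo-MK1775+NLG, 98.8 and 159 in Lipo-MK1775, 129.8 and 135 in Free-MK1775+NLG919, 179 and 275 in Free-MK1775, and 186 and 154 in the negative control. Free-MK1775 replicate 2 is the highest of the 10 libraries for it, while replicate 1 lies inside the control range. Transcripts with the symbol held 51.6% to 78.9% of this locus, and with assembled transcripts its change was -0.02. Eno2 then had -0.36, and the largest negative change was that of Ak4 (-0.55). The libraries of Free-MK1775 and the control did not overlap in 5 of the 40 genes, against 33.3% of all genes, and 25 of the 40 were below 0, against 58.2%. The medians were -0.11 over the 40 and -0.06 over all genes.

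Free-MK1775+NLG919 against the control also had 0 of the 40 genes called, where 0.0194% of all genes were. At an unadjusted p under 0.05 there were 9 of the 40, Pfkp, Pgam1, Eno1, Eno2, Pkm, Pdk1, Bnip3l, Adm and Ak4, all with negative values, against 21.7% of all genes. Adm came nearest to a call, at 42.0 and 47.4 in Free-MK1775+NLG919, against 97.9 and 125 in the negative control (log2 change -1.29, SE 0.23, adjusted p = 0.0955), and Ak4 had the largest change (-1.59, SE 0.42, adjusted p = 0.148). The median was -0.58 over the 40 genes and -0.44 over all, 38 of the 40 were below 0, against 74.2% of all genes, and 20 did not overlap the control, against 50.6% of all genes. Without replicate 1, which leaves only the library of high mitochondrial share, 22 of the 40 were called, beside 41.9% of all genes, with that lone library assumed to vary like the other groups, and without replicate 2 there were 0. With median-of-ratios scaling 22 of the 40 were below 0.

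Lipo-MK1775+NLG against the control had 0 of the 40 genes called, where 0.00646% of all genes were. Only Adm (-0.73, unadjusted p = 0.0112 by limma) and Ak4 (-1.03, 0.0353) had an unadjusted p under 0.05, against 2.52% of all genes, and both had an adjusted p of 1. The largest positive value was that of Slc2a3 (0.53), whose libraries at 11.0 and 11.6 in Lipo-MK1775+NLG, against 8.33 and 6.75 in the negative control do not overlap. The median was -0.08 over the 40 and -0.02 over all genes, 24 of the 40 were below 0, against 53.1% of all genes, and 19 did not overlap the control, against 44%. Neutrophil markers summed to 2699 and 2212 in Lipo-MK1775+NLG and to 1692 and 1225 in the control, with all 10 markers above 0 in log2 change, and their part in these levels was not tested.

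Lipo-MK1775+NLG against Lipo-MK1775 sets the Lipo form with NLG919 beside that form alone, and only the libraries of Lipo-MK1775 have a high mitochondrial share. Slc2a3 rose, with 11.0 and 11.6 in Lipo-MK1775+NLG, against 0.568 and 1.35 in Lipo-MK1775 and a log2 change of 2.68, SE 0.52, adjusted p = 0.0426, the single gene of the 40 called where 5.34% of all genes were, and 4.6% higher. All 40 had positive values, against 84.1% of all genes, and 37 did not overlap, against 76.4%, with a median of 0.86 beside 0.75 over all genes, and with median-of-ratios scaling 21 of the 40 were above 0. The next in order of p were Adm at 0.93, SE 0.23, adjusted p = 0.0514, Pfkl at 1.57, SE 0.40, adjusted p = 0.0525 and Car9 at 1.72, SE 0.45, adjusted p = 0.0534. The call was lost when any 1 of 7 libraries was left out, namely either control, either Free-MK1775 or either Lipo-MK1775+NLG library or Lipo-MK1775 replicate 1. Without Lipo-MK1775 replicate 2 the single call was Car9, and without either Free-MK1775+NLG919 library 27 of the 40 were called, beside 48.1% and 48% of all genes.

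Lipo-MK1775 against Free-MK1775 compares the forms without NLG919. Adm was lower, at 36.4 and 32.4 in Lipo-MK1775, against 83.5 and 88.1 in Free-MK1775, with a log2 change of -1.29, SE 0.23, adjusted p = 0.0413, the single call of the 40 where 3.39% of all genes were called and 2.91% lower. All 40 were below 0, against 83.9% of all genes, and 37 did not overlap, against 73.4%, with medians of -0.88 over the 40 and -0.71 over all genes, and 28 of the 40 were below 0 with median-of-ratios scaling. The call was lost without any 1 of the same 7 libraries, it was Car9 in place of Adm without Lipo-MK1775 replicate 2, and 27 of the 40 were called without either Free-MK1775+NLG919 library, beside 45.2% and 45.1% of all genes.

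Free-MK1775+NLG919 against Free-MK1775 called 0 of the 40 and 0% of all genes. At an unadjusted p under 0.05 there were 4 of the 40, against 10.7% of all genes, 36 were below 0, against 75.7%, and 11 did not overlap, against 37.8%. Adm had 42.0 and 47.4 in Free-MK1775+NLG919, against 83.5 and 88.1 in Free-MK1775 (log2 change -0.93, SE 0.23, adjusted p = 0.404), and the groups do not overlap. Lipo-MK1775+NLG against Free-MK1775+NLG919 called 0 of the 40, with 0.0129% of all genes called, and 4 at an unadjusted p under 0.05, against 12.5%. Of the 40, 36 were above 0, against 77% of all genes, and 21 did not overlap, against 46.6%. Slc2a3 had the largest value (1.70, SE 0.52, adjusted p = 0.373). Without Free-MK1775+NLG919 replicate 1 each of these comparisons called 21 of the 40, beside 37% of all genes in the comparison with Free-MK1775 and 39.3% in that with Lipo-MK1775+NLG.

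The difference Lipo-MK1775+NLG minus Lipo-MK1775, less Free-MK1775+NLG919 minus Free-MK1775, was tested as an interaction. It was called for 14 of the 40 genes, all higher, where 21% of all genes were called and 19.6% higher, with 5 of the 14 being enzymes, 2 carriers, 1 a regulator and 6 other hypoxia-induced genes. Slc2a3 had the largest value (3.71, SE 0.74, adjusted p = 0.0388), followed by Slc16a1 (2.68, SE 0.79, adjusted p = 0.0464) and Car9 (2.47, SE 0.63, adjusted p = 0.0413). Slc16a1, Bnip3 and Ndrg1 were called here and in no other comparison. Ndrg1 had 616 and 646 in Lipo-MK1775+NLG, 233 and 417 in Lipo-MK1775, 478 and 366 in Free-MK1775+NLG919, 485 and 652 in Free-MK1775, and 564 and 580.4 in the negative control. Its lowest libraries are those of Lipo-MK1775 and Free-MK1775+NLG919 replicate 2. The median was 1.42 over the 40 and 1.12 over all genes. Of the 8 libraries it compares, the 3 of high mitochondrial share are both of Lipo-MK1775 and 1 of Free-MK1775+NLG919. With that share as a covariate 0 of the 40 were called, in a fit that cannot separate Lipo-MK1775 from the share. With median-of-ratios scaling 0 were called. All 14 calls were lost without any 1 of the same 7 libraries, and the single call was Car9 without Lipo-MK1775 replicate 2. Without Free-MK1775+NLG919 replicate 1 there were 31, beside 57.5% of all genes, and without its replicate 2 there were 12, beside 24.1%.

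Eno2, Adm and Ak4 lay lower in all 8 treated libraries than in both control libraries. They are 3 of the 40, against 9.17% of all genes, a share no higher than the background. The 5 treated libraries of low mitochondrial share are part of the 8, so these 3 genes must lie below both controls there too. In those 5 no other gene of the 40 joined them, and 9.99% of all genes lay below both controls. Above both controls in all 8 were 0 of the 40, against 1.08% of all genes, and in the 5 of low share 0 of the 40, against 6.15%. Adding assembled transcripts without a symbol from the same locus leaves Adm and Ak4 in this state but not Eno2, which then measured 43.9 and 45.9 in Lipo-MK1775+NLG, 10.1 and 14.5 in Lipo-MK1775, 35.4 and 24.8 in Free-MK1775+NLG919, 38.2 and 49.1 in Free-MK1775, and 48.5 and 64.1 in the negative control. Free-MK1775 replicate 2 then lies above the first control library. With these transcripts Gpi1, Adm, Car9 and Ak4 were the genes below both controls, where 11.3% of all genes were.

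**Figure D4:**
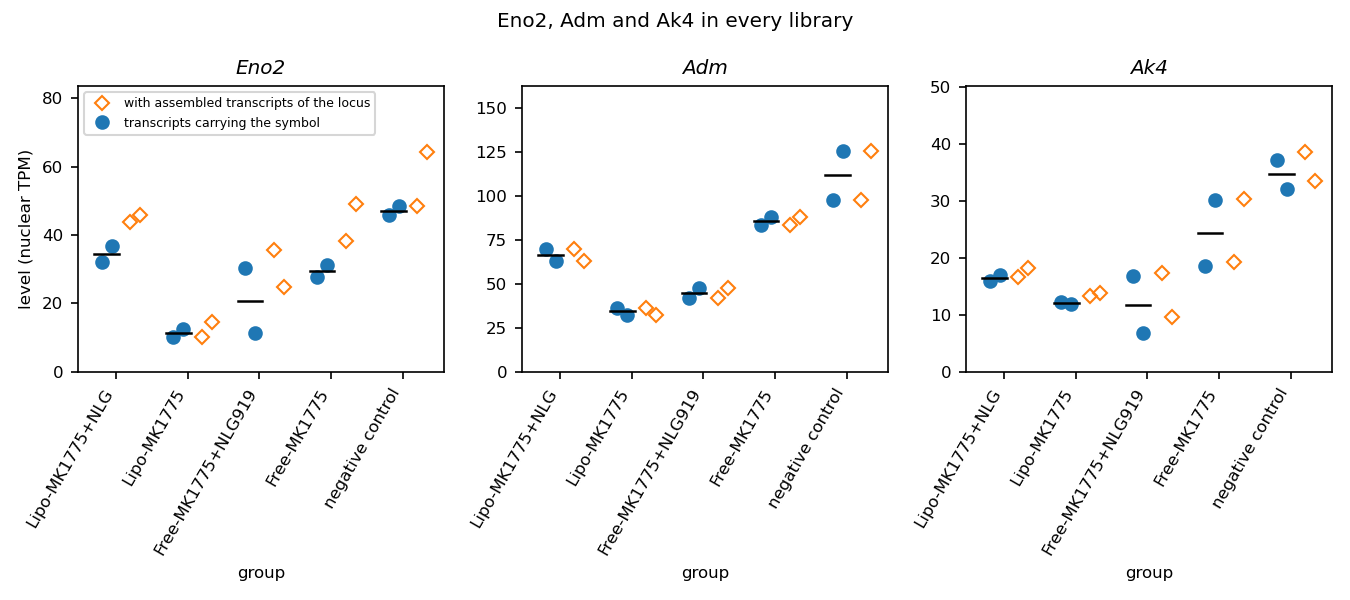
Level in nuclear TPM (vertical axis, from 0) of Eno2, Adm and Ak4 in each library by group (horizontal axis). Filled circles are transcripts that carry the symbol with their group mean as a line, and open diamonds include assembled transcripts of the locus. Adm lies between 32.4 and 36.4 in Lipo-MK1775 and at 97.9 and 125 in the negative control, and the diamonds of Eno2 overlap between Free-MK1775 and the control.

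How the assembly split reads between transcripts changed the level of several of the genes. Assembled transcripts without a symbol overlapped 26 of the 40 loci, and in 8 of the 40 the transcripts with the symbol held under 60% of the locus in at least 1 library. The share ranged from 22.9% to 97.9% for Hk1 at chr10:62104634-62215687 on the minus strand and from 23.0% to 73.1% for Hif1a at chr12:73948149-73994610 on the plus strand, a locus that also holds Snapc1. By symbol alone Hif1a, which encodes the oxygen-regulated subunit, measured 37.8 and 34.3 in Lipo-MK1775+NLG, 32.0 and 14.2 in Lipo-MK1775, 80.8 and 19.0 in Free-MK1775+NLG919, 93.3 and 42.9 in Free-MK1775, and 76.9 and 35.7 in the negative control. With assembled transcripts it measured 129 and 149 in Lipo-MK1775+NLG, 54.8 and 52.9 in Lipo-MK1775, 121 and 43.8 in Free-MK1775+NLG919, 128 and 149 in Free-MK1775, and 151 and 129 in the negative control. In the summed form the 3 libraries of high mitochondrial share lie at 43.8 to 54.8 and the other 7 at 121 to 151, whereas by symbol alone the groups mix.

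Hk1 with assembled transcripts measured 95.4 and 95.2 in Lipo-MK1775+NLG, 42.0 and 41.2 in Lipo-MK1775, 85.2 and 40.9 in Free-MK1775+NLG919, 87.3 and 124 in Free-MK1775, and 113 and 110.0 in the negative control, and its control libraries then lie close together. The median SD between libraries of a group over the 40 genes was 0.341 with them and 0.378 by symbol alone, on the log2 scale, with 20 genes less and 6 more variable. In Lipo-MK1775 against the control, 28 of the 40 then fell, where 6520 of 15677 genes or 41.6% were called, among them Hk1 (-1.40, adjusted p = 0.0148), Hif1a (-1.36, adjusted p = 0.0239), Slc2a1 (-1.75, adjusted p = 0.0121) and Bnip3 (-0.92, adjusted p = 0.0275), by limma's moderated test. By symbol alone Bnip3 stands at 0.43 with median-of-ratios scaling, so its direction rests on the scaling. In the other 3 comparisons with the control 0 were called in this form too. With median-of-ratios scaling on top, Eno2 and Slc2a3 were called and 22 of the 40 were below 0.

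**Figure D5:**
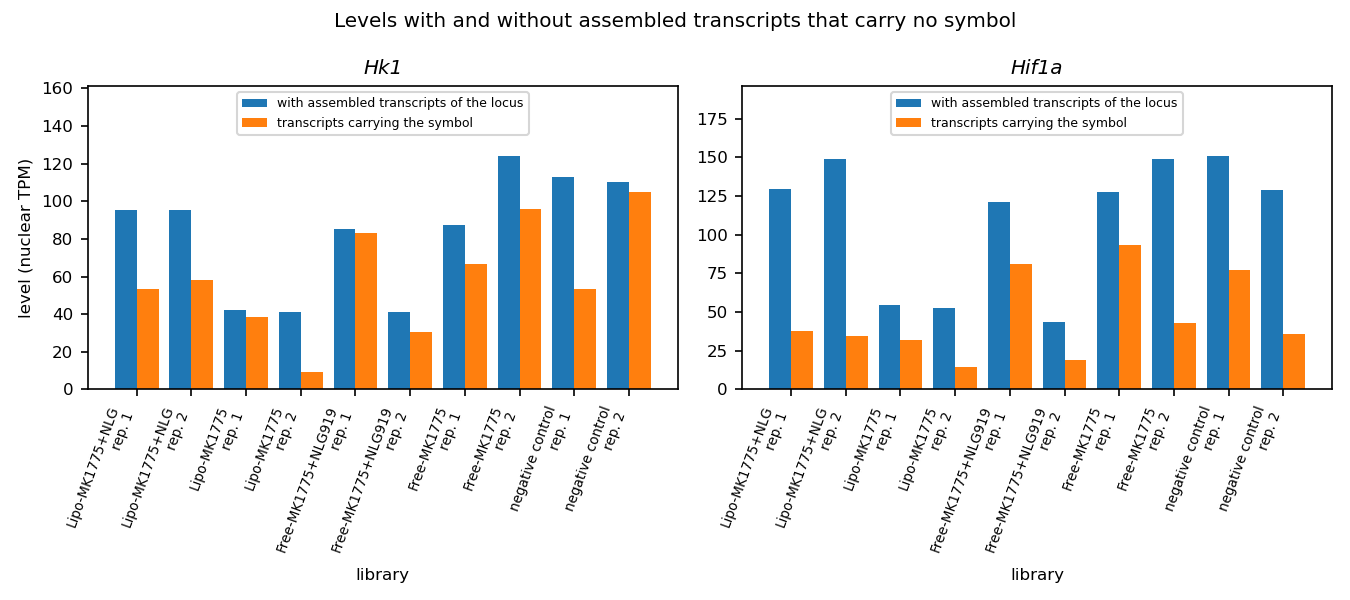
Level in nuclear TPM (vertical axis, from 0) of Hk1 (left) and Hif1a (right) in each library, with assembled transcripts of the locus (first bar) and from transcripts that carry the symbol (second bar). The first bars of Hif1a are at 43.8 to 54.8 in Lipo-MK1775 and Free-MK1775+NLG919 replicate 2, and at 121 to 151 in the other libraries.

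Further genes of the same pathways were counted in the same way. Of 18 further glycolysis and sugar phosphate genes that were tested, 5 fell in Lipo-MK1775 and 0 rose, where 19.4% of all genes fell, among them G6pdx, the entry to the pentose phosphate pathway (-1.19, SE 0.25, adjusted p = 0.0280), Gys1, glycogen synthase (-1.33), and Pgm1, which links glycogen to glycolysis (-1.18). Of 26 further hypoxia-induced genes, 7 fell and 0 rose, beside the same 19.4%. Plod2, a collagen lysyl hydroxylase, had 104 and 114 in Lipo-MK1775+NLG, 38.6 and 39.8 in Lipo-MK1775, 102 and 63.3 in Free-MK1775+NLG919, 103 and 131 in Free-MK1775, and 124 and 130.3 in the negative control, with a log2 change of -1.67, SE 0.27, adjusted p = 0.0235. Kdm3a, a histone demethylase, had -1.98 and Stc2, a secreted glycoprotein, -2.16. The medians were -0.88 for the first list and -0.69 for the second, beside -0.78 over all genes.

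Of 10 HIF subunit and turnover genes, 1 fell in Lipo-MK1775, against 19.4% of all genes. This was Cited2, which competes with HIF for the coactivators CBP and p300, and it measured 118 and 104 in Lipo-MK1775+NLG, 30.6 and 41.5 in Lipo-MK1775, 64.3 and 56.5 in Free-MK1775+NLG919, 78.7 and 114 in Free-MK1775, and 131 and 129.8 in the negative control with a log2 change of -1.84, SE 0.26, adjusted p = 0.0219. Of 12 genes of pyruvate entry into mitochondria 5 fell and 0 rose, again beside 19.4%, including Dld (-1.20) and Pdhb (-0.90), parts of pyruvate dehydrogenase, and Pdp1 (-1.26), the phosphatase that turns it on. In Lipo-MK1775+NLG against Lipo-MK1775, Plod2 (1.46), Kdm3a (1.37), Cited2 (1.61) and Dld (1.13) rose, where 4.6% of all genes did. In Lipo-MK1775 against Free-MK1775, Plod2, Kdm3a, Cited2 and Dld were lower, in that order at -1.54, -1.58, -1.38 and -1.17, where 2.91% of all genes were lower. In the interaction 4 of the 18 further glycolysis genes, 8 of the 26 further hypoxia-induced genes and 5 of the 12 pyruvate genes were called, all higher, where 19.6% of all genes were. The ones of smallest p were G6pdx (1.56), Pgm1 (1.70) and Gbe1, the glycogen branching enzyme (2.41), then Plod2 (1.98), Kdm3a (2.25) and Ero1a, an oxidase of protein folding (3.29), and Dld (1.76), Dlat, another part of pyruvate dehydrogenase (1.87), and Pdk3, a kinase that inhibits it (2.00). Of the HIF list Cited2 was higher (2.25) and Elob, a subunit of the VHL ubiquitin ligase, lower (-1.47). Against the control, the other 3 groups called 0 genes of these lists.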

How the data were processed

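RNA of 10 tumour libraries, 5 groups of 2, was sequenced. The authors deposited FPKM values per transcript for 161762 transcripts. Per the submitters' processing notes, FastQC, Trim Galore, HISAT2, StringTie and GRCm39 were used, with no versions. Extraction and library kits are named in the labels' protocols, which do not state whether strand was kept, so overlapping and antisense genes cannot be told apart. Transcripts on the mitochondrial chromosome (46) were left out, transcripts with one symbol were summed, and each library was rescaled to 1000000 (nuclear TPM). Of 21051 transcripts without a symbol, 14868 lie at the locus of a symbol and were added in an alternative, and 6183 were not used.

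Differences were tested with limma 3.58.1 in R 4.3.3 by its moderated two-sided test on log2(nuclear TPM + 1), with 5 group means and a variance trend over all 10 libraries, for the 15469 symbols at 1 or more in at least 2 libraries; 36855 symbols were below this, and all 40 members passed. A fold change on this scale understates the change of low genes. P-values were adjusted over all genes by Benjamini-Hochberg and called under 0.05. The procedure was tested on simulated data. Counts of reads are not used here, and depth is known only relative to the lowest library. Tables and plots were made with Python 3.11.15, pandas 2.3.3, scipy 1.17.1 and matplotlib 3.10.9. Alternatives were the deposited FPKM scale, median-of-ratios scaling, a pseudocount of 0.1, no filter, assembled transcripts, a replicate block, no trend, the compared groups alone, the mitochondrial share as a covariate, leaving out libraries above 20% mitochondrial share, and leaving out each library. Assembled transcripts combined with median-of-ratios scaling were added after seeing the data. The members and lists were chosen with earlier results of these data known. Every member may be named; values in every library are given for members called in a comparison and for the extremes of each role, and of each pathway list up to 3 called genes of smallest p per comparison.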

Additional observations from a re-analysis of the deposited data

Results flagged for a closer look

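In 14 of the 40 genes the difference between the Lipo groups with and without NLG919 (Lipo-MK1775+NLG minus Lipo-MK1775) differed from that between the free groups (Free-MK1775+NLG919 minus Free-MK1775), by limma's test, where 21% of all genes did. On the log2 scale the glycolytic enzymes were Hk2 at 2.31, Pfkl at 2.25, Pfkp at 1.76, Eno2 at 2.16 and Eno1 at 1.15. The carriers were Slc2a3 at 3.71 and Slc16a1 at 2.68, and the regulator was Pdk1 at 1.76. Among other hypoxia-induced genes the values were 2.47 for Car9, 1.85 for Adm, 1.49 for P4ha1, 1.45 for Bnip3, 1.45 for Bnip3l and 1.44 for Ndrg1. The adjusted p-values ran from 0.0371 to 0.0479 by limma. The mitochondrial share was 2.98% and 3.49% in Lipo-MK1775+NLG, 64.1% and 56.0% in Lipo-MK1775, 2.88% and 47.3% in Free-MK1775+NLG919, and 4.82% and 3.44% in Free-MK1775. Its part in these values was not tested. With the share as a covariate 0 of the 14 were called. Within groups the share differs widely only in Free-MK1775+NLG919, so that fit rests mainly on this pair of libraries. It cannot separate Lipo-MK1775 from the share. With median-of-ratios scaling 0 of the 14 were called. All 14 calls were also lost when a single library was left out, be it either control, either Free-MK1775 or either Lipo-MK1775+NLG library or Lipo-MK1775 replicate 1.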

How the results depend on the processing

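Calls among the 40 genes numbered 13 for Lipo-MK1775 and the control, 1 in Lipo-MK1775+NLG against Lipo-MK1775, 1 in Lipo-MK1775 against Free-MK1775 and 14 in the interaction. In that order the numbers were 31, 33, 32 and 29 with deposited FPKM, beside 48.2%, 54.8%, 48.3% and 47% of all genes. They were 1, 0, 0 and 0 with median-of-ratios scaling (5.39%, 1.14%, 0.901% and 0.307% of all genes), and 1, 0, 0 and 0 with no filter (2.95%, 0.183%, 0.226% and 0.0934%). They were 28, 26, 18 and 28 with assembled transcripts (41.6%, 35.8%, 29.5% and 44.6%), and 25, 24, 11 and 0 with only the groups compared (41.2%, 39.2%, 24.5% and 0.097%). With the mitochondrial share as a covariate there were 0 in each (0.0646%, 0.0905%, 0.129% and 0%). With assembled transcripts and median-of-ratios scaling together it was 2, 1, 0 and 1 (16.7%, 4.37%, 5.13% and 6.36%). Without a variance trend it was 0 for Lipo-MK1775 against Free-MK1775 and 7 for the interaction, beside 1.03% and 15.8% of all genes. Leaving out each library gave 0 to 31, 0 to 27, 0 to 27 and 0 to 31, with 0.00654% to 49.6%, 0.0131% to 48.1%, 0.013% to 45.2% and 0% to 57.5% of all genes called. It gave 0 to 22 for Free-MK1775+NLG919 against the control, and 0 to 21 when Free-MK1775+NLG919 was set against Free-MK1775 or Lipo-MK1775+NLG against Free-MK1775+NLG919. It gave 0 throughout for Free-MK1775 and Lipo-MK1775+NLG against the control. A lone library is then assumed to vary like the other groups. Leaving out the libraries above 20% mitochondrial share gives no value for comparisons with Lipo-MK1775.

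Replicate numbers are shared by the groups, but same-numbered libraries did not deviate together (r from -0.204 to 0.0654 over 10 pairs of groups, 0 above 0.1). With the replicate block the counts were 9, 0, 0 and 0, beside 13.7%, 0.265%, 0.388% and 0.465% of all genes.

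Enzymes minus other hypoxia-induced genes ranged over left-out libraries from -0.00939 to 0.221 in Lipo-MK1775+NLG, 0.109 to 0.223 in Lipo-MK1775, -0.346 to -0.0194 in Free-MK1775+NLG919 and -0.133 to 0.0825 in Free-MK1775. For Free-MK1775+NLG919 it was 0.0264 with the covariate and -0.0194 without the libraries of high mitochondrial share. Signs turned under the covariate for Hk2 (0.024), Pfkl (0.19), Pfkfb3 (0.12) and P4ha1 (0.15) in Lipo-MK1775 against the control, and for Hk2 (-0.044), Pfkl (-0.042), Pfkp (-0.036), Eno2 (-0.21), Slc16a1 (-0.43) and P4ha1 (-0.30) in the interaction. Eno1 turned in the interaction with median-of-ratios scaling (-0.18), and also with assembled transcripts and median-of-ratios scaling together (-0.28), where Pfkl in Lipo-MK1775 stood at 0.0056. The covariate fit rests mainly on the pair of Free-MK1775+NLG919 libraries, so the sign turns under it do not separate treatment from mitochondrial share. The causes were not tested.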
